A study of Danio rerio with 2 samples.

Results

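Heat shock genes encode chaperones, proteins that bind unfolded chains and help them fold. The 10 genes described here are 4 inducible Hsp70 genes (*hsp70l* and the neighbours *hsp70.1*, *hsp70.2* and *hsp70.3*), their helpers *dnajb1b* and *bag3*, *hsp90aa1.1*, *hspb1*, *serpinh1b*, and *hsf1*, which encodes the transcription factor of the response. They were chosen by name from a table of 32105 genes, with earlier results of these data known. Each name was found in 1 row. All 10 reached a level of 10 CPM (counts scaled to the library total) in both libraries. A gene is called measured here if it did so in at least 1 library, as 9672 genes did.

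The mutant cells came from zebrafish embryos labelled as knockout of *add1*, the gene of adducin 1, a membrane skeleton protein that caps actin. The cells they were compared with came from siblings labelled as wild type. Both were sorted for EGFP driven by *gata1*, the gene of the main red cell transcription factor, at 22 hours post fertilization, and the labels call them erythroblasts. There was 1 library per genotype, of 5956344 counts for mutant cells and 6157792 for sibling cells. The strain, the allele and the number of embryos were not given in the sources used here.

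With 1 library per genotype, no difference here has a replicate check and none was tested. Genotype cannot be told apart from any other difference between the preparations. Intervals are exact 95% intervals for counting error alone. Without molecular identifiers PCR copies count as reads of their own, which can make these intervals too narrow. Fold changes are ratios of CPM, mutant over sibling.

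*add1* itself had 18 counts in mutant cells and 1166 counts in sibling cells, 62.7-fold less in mutant cells (39.5 to 106). The red cell genes *gata1a* and *alas2*, which encodes the first enzyme of heme synthesis, were at 623 and 1996 CPM in mutant cells. In sibling cells they were at 834 and 3537 CPM. The other red cell genes named as checks of the labels differed by more. *slc4a1a* had 1782 CPM in mutant cells and 8152 CPM in sibling cells, 4.58-fold less in mutant cells. *hbbe1.1* had 17002.5 CPM in mutant cells and 35404.1 CPM in sibling cells, 2.08-fold less in mutant cells. RNA of the labelled cell type was thus abundant in both libraries, though lower in mutant cells for each of these genes. The 24 erythroid markers summed to 57417 CPM in mutant cells and 112203 CPM in sibling cells. Of them, 12 were at least 2-fold lower in mutant cells, against 2.56% of all measured genes, and 2 were higher there. In such bulk samples, fewer cells of a type and less RNA per cell cannot be told apart. Over all measured genes the median log2 ratio of CPM + 1 was 0.13. TMM scaling, which sets the bulk of genes to no difference, lowers each log2 ratio of CPM by 0.20 and turns that median to -0.075. A log2 ratio near 0.13 is therefore that of the bulk of genes.

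In a resting cell the heat shock factor Hsf1 is held inactive in the cytosol by chaperones. When unfolded proteins accumulate, the chaperones are drawn away, and Hsf1 assembles into trimers and switches on inducible Hsp70, Hsp40, Hsp90 and small heat shock genes. Hsp70 folds its clients in cycles of ATP use that Hsp40 proteins start and that Bag proteins help to end. In erythroid cells, Hsp70 is also known from work in human cells to protect the transcription factor GATA1 from cleavage by caspases.

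Of the inducible Hsp70 genes, 3 were among the genes with the highest counts in both libraries, and all 4 were higher in mutant cells. The highest by CPM was *hsp70.3* (ENSDARG00000021924, chromosome 3, 25992865 to 25996220, GRCz10), with 13022 CPM in mutant cells and 8016 CPM in sibling cells. By CPM it ranked 3 among all genes of mutant cells and 9 in sibling cells. Its fold was 1.62 (1.61 to 1.64). *hsp70.2* (ENSDARG00000092362, chromosome 3, 25988732 to 25991482) had 3821 CPM in mutant cells and 2269 CPM in sibling cells, a fold of 1.68 (1.65 to 1.72). *hsp70l* (ENSDARG00000055723, chromosome 8, 4741891 to 4744644), the copy that lies apart from the others, had 3876 CPM in mutant cells and 2433 CPM in sibling cells, a fold of 1.59 (1.56 to 1.63). These 3 copies were thus higher by a similar factor, and 2-fold was reached by none of them.

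*hsp70.1* differed from the other copies, with an interval of its fold that lay above all of theirs. Its value may depend on how reads shared by the copies were assigned, and the sources used here do not give this. The gene (ENSDARG00000029688, chromosome 3, 25981914 to 25984688) had 10192 counts in mutant cells and 297 counts in sibling cells. These are 1711 CPM in mutant cells and 48.2 CPM in sibling cells, a fold of 35.5 (31.6 to 40.0). It had the third highest log2 ratio of the 9672 measured genes, at 5.12. In the mutant library it ranked 43 among all genes by CPM, and in sibling cells 3776.

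**Figure D1:**
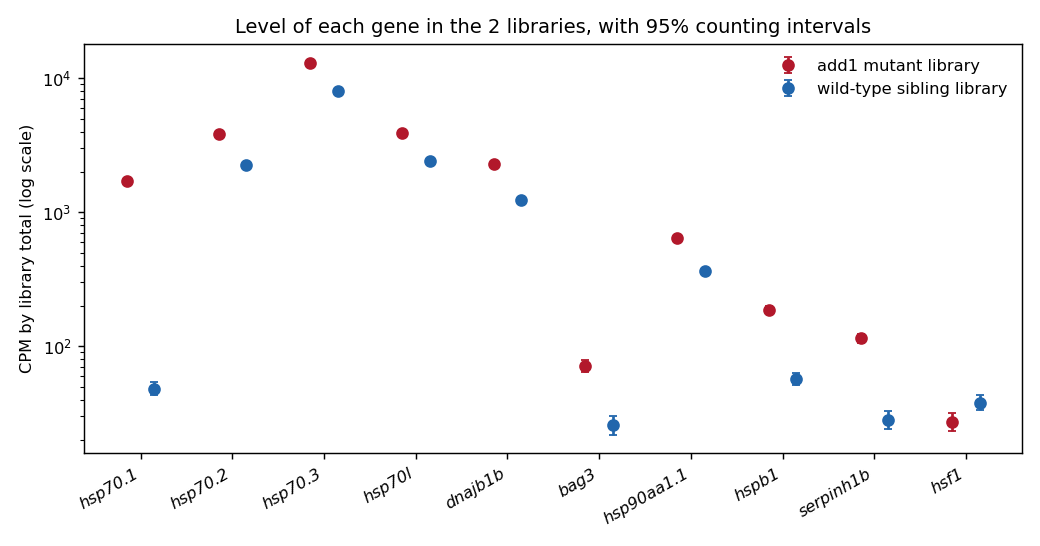
Level of each of the 10 genes in CPM by library total, on a log axis, in the *add1* mutant library (red, left of each pair) and the wild-type sibling library (blue). Bars are exact 95% counting intervals, mostly smaller than the points. *hsp70.1* shows the widest gap, at 1711 CPM in mutant cells and 48.2 CPM in sibling cells, and *hsf1* is the 1 gene with the mutant point below the sibling point.

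Reads may be shared among the Hsp70 copies, whose sequences are known to be very similar. Their sum does not depend on how shared reads were divided among the 4 genes. It would depend on whether such reads were dropped, counted more than once or given to other genes, which the sources used here do not give. Together the 4 genes held 133605 counts in mutant cells and 78614 in sibling cells. This was 2.24% of all counts in mutant cells (2.23 to 2.25) and 1.28% in sibling cells (1.27 to 1.29), a fold of 1.76 (1.74 to 1.77). With TMM scaling the log2 ratio of the sum was 0.61 in place of 0.81.

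The make-up of the sum also differed. *hsp70.1* supplied 7.63% of the Hsp70 counts in mutant cells (7.49 to 7.77) and 0.378% in sibling cells (0.336 to 0.423). *hsp70.3* supplied 58.1% of them in mutant cells and 62.8% in sibling cells. The share of *hsp70.2* was 17.0% in mutant cells and 17.8% in sibling cells, and that of *hsp70l* 17.3% and 19.1% in the same order. *hsp70.1* thus made up 17.2% of the summed difference of the 4 genes in CPM, and *hsp70.3* 51.8%. Without *hsp70.1* the other 3 copies summed to 20720 CPM in mutant cells and 12718 CPM in sibling cells, a fold of 1.63 (1.61 to 1.64).

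**Figure D2:**
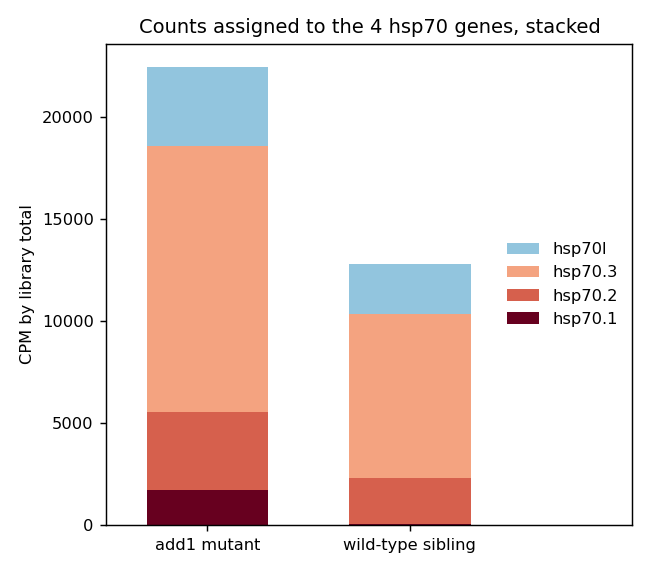
CPM by library total of the *hsp70* genes, stacked, in the *add1* mutant library (left bar) and the wild-type sibling library (right bar). The mutant bar reaches 22431 CPM and the sibling bar 12767 CPM. The *hsp70.1* part at the foot of the bar is 1711 CPM in mutant cells and 48.2 CPM in sibling cells.

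The copies on chromosome 3 sit in a row. In the table's coordinates 4043 bases separate *hsp70.1* from *hsp70.2*, and 1382 bases separate *hsp70.2* from *hsp70.3*. The 3 copies lie within the span of *atp2a1*, the calcium pump gene of fast muscle, which had 928 CPM in mutant cells and 468 CPM in sibling cells, a fold of 1.99 (1.90 to 2.08). Whether reads were counted with regard to strand was not given in the sources used here, so reads of *atp2a1* cannot be told apart from those of the nested genes where they overlap. The whole of *atp2a1* held 5530 counts in mutant cells and 2879 counts in sibling cells, against 10192 and 297 counts of *hsp70.1* in the same order. How reads in the overlap were assigned is unknown, so the *atp2a1* counts set no bound on its reads among those of *hsp70.1*.

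Levels of different genes can be compared only per length, and here the authors' FPKM (fragments scaled to gene length and library size) served. In FPKM the order in mutant cells was *hsp70.3* (5523), *hsp70l* (1684), *dnajb1b* (1091), *hsp70.2* (850), *hsp70.1* (537), *hsp90aa1.1* (206), *hspb1* (81.4), *bag3* (31.8), *serpinh1b* (15.0) and *hsf1* (5.27). In the sibling library it was *hsp70.3* (3399), *hsp70l* (1057), *dnajb1b* (582), *hsp70.2* (505), *hsp90aa1.1* (116), *hspb1* (25.0), *hsp70.1* (15.1), *bag3* (11.5), *hsf1* (7.37) and *serpinh1b* (3.67). In FPKM *hsp70.1* stood above *hsp90aa1.1* and *hspb1* in mutant cells and below both in sibling cells. The places of *hsp70.1*, *hsp70.2* and *serpinh1b* depend on the length used. The FPKM of *hsp70.2* imply a length of 4497 bases for a span of 2751 bases, and those of *hsp70.1* a length of 3189 bases for a span of 2775. For *serpinh1b* the implied length was 7645 bases for a span of 4382. Such an implied length above the span was found in 3.50% of 18020 genes. Per kilobase of span, *hsp70.2* had 1389 CPM in mutant cells and 825 in sibling cells, close to *hsp70l* with 1407 in mutant cells and 883 in sibling cells. On that scale *serpinh1b*, with 26.2 CPM in mutant cells and 6.41 in sibling cells, was above *hsf1* in both libraries, with 1.05 in mutant cells and 1.47 in sibling cells. A span includes introns, however, and that of *hsf1* was 25819 bases against an implied length of 5158. The span thus lowers *hsf1* and raises *serpinh1b*, and their order in sibling cells depends on the scale used.

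Among the Hsp70 helpers, *dnajb1b* (ENSDARG00000041394, chromosome 1, 55068227 to 55072557) encodes an Hsp40 protein that delivers clients to Hsp70 and starts its ATP cycle. It had 2312 CPM in mutant cells and 1233 CPM in sibling cells, a fold of 1.88 (1.82 to 1.93), a little above that of the 3 abundant Hsp70 copies. Of its span, 1126 bases overlap *adgre10*, an adhesion receptor gene, which had 980 CPM in mutant cells and 503 CPM in sibling cells, a fold of 1.95 (1.86 to 2.03). How reads in the overlap were assigned was not given in the sources used here. *bag3* (ENSDARG00000039486, chromosome 13, 25356158 to 25368211) encodes a co-chaperone that releases clients from Hsp70 and links it to small heat shock proteins and to autophagy. Its 424 counts in mutant cells and 158 in sibling cells were 71.2 CPM and 25.7 CPM in that order, a fold of 2.77 (2.31 to 3.35).

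*hspb1* (ENSDARG00000041065, chromosome 5, 3238284 to 3255083), a small heat shock protein that holds unfolded chains until Hsp70 takes them over, had 187 CPM in mutant cells and 57.3 CPM in sibling cells. Its fold was 3.26 (2.89 to 3.68). *serpinh1b* (ENSDARG00000019949, chromosome 15, 29450292 to 29454673) encodes Hsp47, a chaperone of the endoplasmic reticulum that binds procollagen and is induced by heat. It had 683 counts in mutant cells and 173 in sibling cells, a level of 115 CPM in mutant cells and 28.1 CPM in sibling cells and a fold of 4.08 (3.45 to 4.85). Both were higher in mutant cells by more than the abundant Hsp70 copies.

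*hsp90aa1.1* (ENSDARG00000010478, chromosome 20, 54192871 to 54222597), an Hsp90 gene known from developing zebrafish muscle, where its product folds myosin, had 645 CPM in mutant cells and 363 CPM in sibling cells, a fold of 1.77 (1.68 to 1.87). Its span overlaps that of its paralog *hsp90aa1.2* by 13908 bases. *hsp90aa1.2* had 2634 CPM in mutant cells and 1914 CPM in sibling cells. Summed, the pair stood at 3279 CPM in mutant cells and 2277 CPM in sibling cells, a fold of 1.44 (1.41 to 1.47), which is lower than that of *hsp90aa1.1* alone.

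*hsf1* (ENSDARG00000008818, chromosome 19, 3115552 to 3141370) was the 1 member with less RNA in mutant cells. It had 162 counts in mutant cells and 234 in sibling cells, or 27.2 CPM against 38.0 CPM, 1.40-fold lower in mutant cells (1.14 to 1.72). The activity of Hsf1 is set mainly by its protein state, which was not measured. *hsf2*, its relative, had 33.1 CPM in mutant cells and 36.9 CPM in sibling cells, and its interval included no difference (fold 0.897, 0.738 to 1.09).

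In all, 4 of the 10 genes were at least 2-fold higher on the scale of CPM + 1, namely *hsp70.1*, *serpinh1b*, *hspb1* and *bag3*, and 0 were at least 2-fold lower. Over all measured genes 10.1% were at least 2-fold higher (981 genes), and 2.56% were lower by as much (248 genes). With TMM scaling these were 679 genes (7.05%) and 435 genes (4.52%), and the same number of members, 4, was higher. Of the 8242 genes that reached 10 CPM in both libraries, 427 were at least 2-fold higher and 156 lower. At 1.5-fold, 9 of the 10 members were higher, against 21.5% of measured genes, and 0 were lower, against 8.17%. With TMM scaling 6 members were higher at 1.5-fold, against 14.7% of measured genes, since *hsp70.2*, *hsp70.3* and *hsp70l* no longer reached 1.5-fold, and 1 member, *hsf1*, was lower, against 15.2%. The median log2 ratio of the members was 0.87 and that of all measured genes 0.13. The members were chosen with earlier results of these data known, so these counts and medians are no independent comparison with all genes. Among the 109 genes that reached 1000 CPM in at least 1 library, which include 5 members, 22.9% were at least 1.5-fold higher. Genes that reached this level in mutant cells alone, such as *hsp70.1*, had to be higher there, which raises that share.

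By the rank of the log2 ratio among measured genes, where 1 is the highest, *hsp70.1* stood at 3, *serpinh1b* at 183, *hspb1* at 300 and *bag3* at 450. The others followed with *dnajb1b* at 1155, *hsp90aa1.1* at 1340, *hsp70.2* at 1539, *hsp70.3* at 1688 and *hsp70l* at 1773. *hsf1* stood at 8537. Of measured genes, 82.5% had a lower ratio than *hsp70.3*, the most abundant copy, and 88.1% a lower ratio than *dnajb1b*. Over 2 libraries a gene has a single ratio, so no likeness of pattern between genes beyond this rank could be computed.

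**Figure D3:**
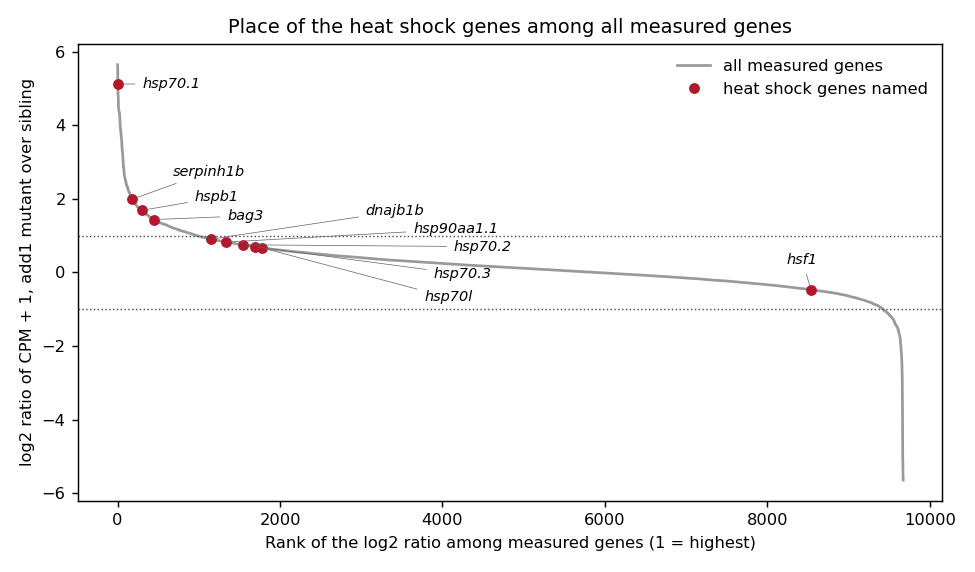
Log2 ratio of CPM + 1, *add1* mutant over sibling, of the 9672 measured genes against their rank (grey line), with the 10 heat shock genes in red. Dotted lines mark 2-fold. *hsp70.1* lies at the top end at 5.12, *serpinh1b*, *hspb1* and *bag3* lie between 1.44 and 1.99, and *hsf1* lies at -0.47.

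The wider chaperone network lay close to the bulk of genes. Of 93 measured genes in the chaperone lists, each counted once and without the members, 8 were at least 2-fold higher and 0 lower, or 5 higher with TMM scaling. The counts by library total may be read against the 10.1% and 2.56% of all measured genes, and that with TMM scaling against 7.05% higher and 4.52% lower. The counts of measured genes in each chaperone list below may be read against the same shares. Their median log2 ratio was 0.15, close to that of all genes, and -0.046 with TMM scaling, where all genes were at -0.075.

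The constitutive Hsp70 genes differed less, with folds of 0.939 for *hspa8*, 0.859 for *hspa5* and 1.15 for *hspa9*. *hspa8*, the main Hsp70 of unstressed cells, was at 2835 CPM in mutant cells and 3018 CPM in sibling cells (interval of the fold 0.920 to 0.959). *hspa5*, the Hsp70 of the endoplasmic reticulum, was at 924 CPM in mutant cells and 1076 CPM in sibling cells, and *hspa9*, that of mitochondria, at 920 CPM in mutant cells and 798 CPM in sibling cells. Of 11 measured genes in the rest of the Hsp70 family, 1 was at least 2-fold higher and 0 lower, with a median log2 ratio of 0.20 that became -0.097 with TMM scaling. The higher one was *si:ch211-199o1.2*, which the name table gives as *hspa1b*. It had 117 counts in mutant cells and 25 in sibling cells, a fold of 4.84 (3.12 to 7.78), and reached the minimum in mutant cells alone. *hsc70*, singled out after its values were seen and below the minimum for a measured gene, had 0 counts in mutant cells and 45 in sibling cells, which a floor of 3 counts turns into a level 14.5-fold lower in mutant cells. With the counting error of the 45 counts, the exact interval starts at 11.3-fold.

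Of 11 small heat shock genes other than *hspb1*, 4 were measured, and *hspb11* and *hspb9* were at least 2-fold higher, while *hspb8* and *hspb7* did not reach 2-fold. All 4 reached the minimum in both libraries. Over all 8242 genes that did so, 427 were at least 2-fold higher and 156 lower. The levels were *hspb11* (55.9 CPM in mutant cells and 11.7 CPM in sibling cells), *hspb9* (37.9 and 14.0 CPM), *hspb8* (156 and 84.6 CPM) and *hspb7* (19.6 and 11.2 CPM), the value of mutant cells before that of sibling cells. *hspb6* had 1 count in mutant cells and 3 in sibling cells, and *hspb15* 0 in mutant cells and 4 in sibling cells. The alpha crystallin genes *cryaa* and *cryaba* had 0 counts in both libraries, which allows up to 0.504 CPM in mutant cells and 0.487 CPM in sibling cells.

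Of 34 measured Hsp40 genes other than *dnajb1b*, 3 were at least 2-fold higher and 0 lower, against 10.1% and 2.56% of all measured genes. Of the 30 that reached the minimum in both libraries 1 was higher, against 427 of all 8242 such genes. The median log2 ratio of the list was 0.15 (-0.046 with TMM scaling). *dnajb6b*, whose human counterpart holds back protein aggregation, had 224 CPM in mutant cells and 102 CPM in sibling cells, a fold of 2.21 (2.01 to 2.43). *dnajc12* and *dnajc27* were higher by 2.52-fold (1.67 to 3.88) and 2.38-fold (1.56 to 3.70) from low counts of 83 and 76 in mutant cells, against 34 and 33 in sibling cells. *dnajb1a*, the paralog of *dnajb1b*, had 24.5 CPM in mutant cells and 21.9 CPM in sibling cells (fold 1.12, 0.879 to 1.42). Per length, *dnajb1a* stood at 15.0 FPKM in mutant cells and 13.4 FPKM in sibling cells, well under the 1091 and 582 FPKM of *dnajb1b* in the same order. *dnajc9*, whose human counterpart is a chaperone of histones, was at the low end with 41.3 CPM in mutant cells and 69.3 CPM in sibling cells.

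The 9 measured exchange factors and co-chaperones of Hsp70 other than *bag3* had log2 ratios between -0.31 and 0.26, and 0 of them passed 2-fold. *bag1* had 75.9 CPM in mutant cells and 80.2 CPM in sibling cells, and *bag4* 22.7 CPM in mutant cells and 28.4 CPM in sibling cells. In the Hsp90 list 1 of 20 measured genes was at least 2-fold higher and 0 lower. All 20 reached the minimum in both libraries, and of all 8242 genes that did so 427 were higher by as much and 156 lower. The higher gene was *ahsa1a*, an activator of the Hsp90 ATPase, with 22.0 CPM in mutant cells and 10.4 CPM in sibling cells. The abundant cytosolic *hsp90ab1* had 1849 CPM in mutant cells and 1668 CPM in sibling cells, and *hsp90b1*, the Hsp90 of the endoplasmic reticulum, 104 CPM in mutant cells and 175 CPM in sibling cells.

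Among 22 measured genes known to be induced by heat in vertebrate cells, with the 10 members left out, 2 were at least 2-fold higher and 0 lower. All 22 reached the minimum in both libraries. Over all 8242 genes that did so, 427 were at least 2-fold higher and 156 lower. The median log2 ratio of the list was 0.29, or 0.089 with TMM scaling. *ubb*, a polyubiquitin gene, had 1066 CPM in mutant cells and 433 CPM in sibling cells, a fold of 2.46 (2.35 to 2.58). The other was *ahsa1a*. *hspe1* and *hspd1*, the mitochondrial chaperonin pair, had folds of 1.52 (1.36 to 1.70) and 1.23 (1.13 to 1.35). The mitochondrial list had 0 of 13 measured genes past 2-fold and a median of 0.21. Only 2 genes of the heat shock factor list were measured, *hsf2* and *hsbp1b*, and *hsf4* and *hsf5* had 0 counts in both libraries.

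**Figure D4:**
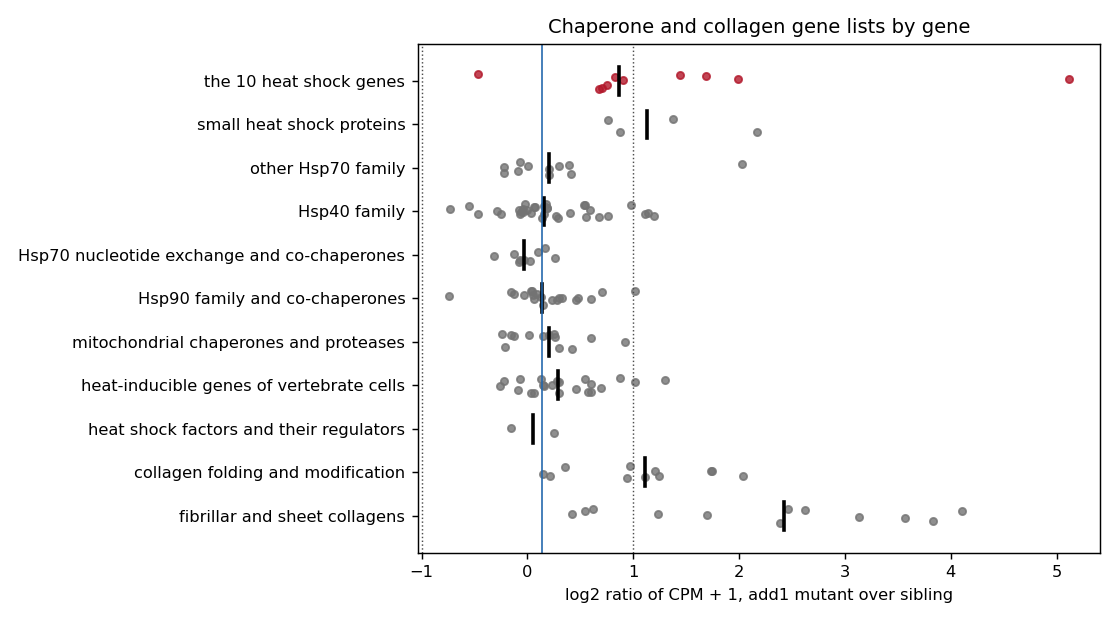
Log2 ratio of CPM + 1, *add1* mutant over sibling, of the measured genes of each list, with a dot per gene and a black bar at the list's median. The members are red, dotted lines mark 2-fold, and the blue line is the median of all measured genes at 0.13. The members' median is 0.87, those of the other Hsp70, Hsp40 and Hsp90 lists lie between 0.14 and 0.20, and that of the collagens, most of which reached the minimum in mutant cells alone, is 2.42.

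Several members are known from cells other than red cells, and markers of those cells also differed between the libraries. Of 34 measured skeletal muscle markers, 20 were at least 2-fold higher and 0 lower, or 17 and 0 of the 29 that reached the minimum in both libraries. Over all genes that did so, these were 427 and 156 of 8242. The list of 37 rows summed to 17607 CPM in mutant cells and 6379 CPM in sibling cells, a fold of 2.76 (2.73 to 2.79), and 0 of its genes had a count of 0 in either library. *smyhc1*, slow myosin heavy chain, had 2748 CPM in mutant cells and 541 CPM in sibling cells. Members of the list also lay the other way, though 0 of them by 2-fold. The fast myosin heavy chains *myhz1.1* and *myhz2* had 56.6 and 76.4 CPM in mutant cells, against 81.0 and 104 CPM in sibling cells, and 27 of the 34 measured genes had a ratio above 0. *unc45b*, the co-chaperone that acts with Hsp90 on muscle myosin, had 76.4 CPM in mutant cells and 60.7 CPM in sibling cells, a fold of 1.26 (1.09 to 1.45). The part of muscle RNA in the values of *hsp90aa1.1*, *hspb1* and *bag3* was not tested.

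The collagen genes, whose products *serpinh1b* helps to fold, often had little RNA in sibling cells. Of 12 measured collagen genes, 8 reached the minimum of 10 CPM in mutant cells alone and so had to be higher there. Of the 4 that reached it in both libraries, 1 was at least 2-fold higher and 0 lower, with a median log2 ratio of 0.58. Over all 8242 genes that did so, 427 were at least 2-fold higher and 156 lower, with a median of 0.084. The collagen list of 17 rows summed to 425 CPM in mutant cells and 130 CPM in sibling cells, a fold of 3.27 (3.02 to 3.55). *col2a1a*, a collagen of notochord and cartilage, had 55.1 CPM in mutant cells and 3.74 CPM in sibling cells. Of 11 measured collagen-modifying genes, 6 reached the minimum in mutant cells alone, among them *plod2*, which encodes a lysyl hydroxylase (24.3 CPM in mutant cells and 5.20 CPM in sibling cells), and *serpinh1a*, the paralog of *serpinh1b* (10.6 CPM in mutant cells and 3.90 CPM in sibling cells). Of the 5 that reached it in both libraries, 2 were at least 2-fold higher and 0 lower, with a median log2 ratio of 0.36. Of 14 genes listed as notochord markers, 4 were measured, each through mutant cells alone, so they had to be higher there. Among them were *cmn* (61.3 CPM in mutant cells and 1.14 CPM in sibling cells) and *ta*, the Brachyury gene (27.5 CPM in mutant cells and 5.36 CPM in sibling cells). Of the listed genes, *mybpha* and *matn3b* had 0 counts in both libraries, *caly* had 0 in mutant cells and *loxl5b* 0 in sibling cells. Whether each listed gene is particular to the notochord was not checked. The notochord list summed to 143 CPM in mutant cells and 19.0 CPM in sibling cells. The part of notochord RNA in the value of *serpinh1b* was not tested.

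For the lens, where *hsp70l* is known to be used in unstressed zebrafish embryos, most defining genes were at or near 0. Of 16 listed genes, 12 had 0 counts in mutant cells and 8 in sibling cells, the crystallins *crygm2d1* and *crygn2* and the channel gene *mipb* in both. The list held 117 counts in mutant cells and 23 in sibling cells, with *foxe3*, a lens transcription factor, at 79 and 5 of them in that order. *pitx3* had 30 counts in mutant cells and 4 in sibling cells. The lens list thus summed to 19.6 CPM in mutant cells and 3.74 CPM in sibling cells, beside 3876 and 2433 CPM of *hsp70l* in the same order. The part of lens RNA in the value of *hsp70l* was not tested.

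Other marker lists gave the following levels. Their counts may be read against all 8242 genes that reached the minimum in both libraries, with 427 at least 2-fold higher and 156 lower. Of 7 hatching gland genes that reached the minimum in both libraries, 5 were at least 2-fold higher, and the list summed to 5574 CPM in mutant cells and 2428 CPM in sibling cells. Most of the sibling sum came from *klf17*, with 2059 CPM in mutant cells and 2027 CPM in sibling cells. The median log2 ratio of the 7 genes was 4.02, so the sum differed less than the median gene. Which cells the *klf17* RNA came from was not tested. *he1b*, a hatching enzyme gene, had 633 CPM in mutant cells and 22.1 CPM in sibling cells. Neural markers summed to 454 CPM in mutant cells and 173 CPM in sibling cells (3 of the 5 that reached the minimum in both were at least 2-fold higher), and epidermis markers to 3489 CPM in mutant cells and 2155 CPM in sibling cells (2 of 14). Endothelium markers summed to 342 CPM in mutant cells and 269 CPM in sibling cells, with 0 of 7 past 2-fold. Myeloid markers summed to 1262 CPM in mutant cells and 1402 CPM in sibling cells, with 3 of 11 at least 2-fold lower. The part of these cells' RNA in the Hsp70 values was not tested.

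**Figure D5:**
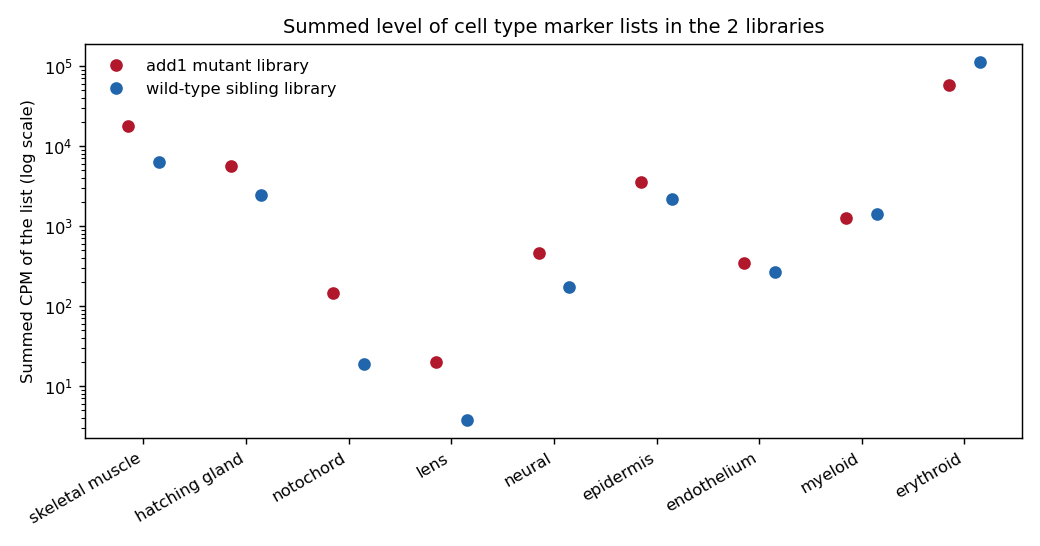
Summed CPM by library total of each cell type marker list, on a log axis, in the *add1* mutant library (red, left of each pair) and the wild-type sibling library (blue). Muscle, hatching gland, notochord, lens, neural, epidermis and endothelium lists are higher in mutant cells, while myeloid and erythroid lists are lower, erythroid genes at 57417 CPM in mutant cells and 112203 CPM in sibling cells.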

How the data were processed

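RNA of sorted gata1-EGFP cells was made into libraries with the SMART-Seq HT kit and read on a BGISEQ-500, as the labels' protocols state. The genome build is GRCz10, per the submitters' processing notes. No aligner, counter, strand setting or filter was given in the sources used here. The authors deposited raw read counts and FPKM per gene for 2 libraries. Between the libraries, the deposited count per FPKM had a ratio of 1.03, as had the count totals, so the FPKM carry the same scaling as the totals.

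Deposited counts were divided by library totals to give CPM, which the choice of members asked for. Ratios are mutant over sibling, as log2 of CPM + 1 or as folds of CPM with exact (Clopper-Pearson) 95% intervals. The level of 10 CPM in the higher library that made a gene measured equals 59.6 counts in mutant and 61.6 in sibling cells, and a difference was counted from 2-fold. The floor for a count of 0 was 3 counts per library. Intervals and floors cover counting error only. TMM and upper quartile factors came from edgeR 4.0.16 and median-of-ratios factors from DESeq2 1.42.0 (R 4.3.3), for scaling only, with no test. The rest was done in Python 3.11.15 with scipy 1.17.1. Intervals were run on counts simulated with the same counting error that they assume. The simulation held no PCR copies and no spread between embryos, so it could not test for these.

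The members, lists and rules were chosen with earlier results of these data known. List genes were matched by name and, where absent, by gene ID through a table of names. The Hsp40 list took genes whose names start with dnaja, dnajb or dnajc and a digit. Several lists hold genes that reached the minimum in 1 library alone and so had to differ, and their counts are also given over genes that reached it in both. Letter case was ignored there, and the lookup by ID was added, once the table was at hand. Named genes beyond the members were those with the largest absolute log2 ratios in each list (up to 6 for chaperone and collagen lists, up to 3 for marker lists) and a set of paralogs. As checks of the labels, *add1*, *gata1a*, *alas2*, *slc4a1a* and *hbbe1.1* were named as well. Chosen outside that rule, for their overlap or after their values were seen, were *hsc70*, *hspa9*, *atp2a1*, *adgre10*, *hsf4*, *hsf5*, *hspb6*, *hspb15*, *myhz1.1*, *myhz2*, the marker genes at 0 counts and the endoplasmic reticulum genes of the closing section. *klf17* and *pitx3* were also named after their values were seen. Sequences were not used here. Alternatives were other scalings, pseudocounts of 0.1 and 5, other minimums, FPKM, and rules of 1.5-fold and 4-fold. TMM with the 1.5-fold rule was added after seeing the data.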

Additional observations from a re-analysis of the deposited data

How the results depend on the processing

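No member changed direction under the 7 alternatives of scaling, pseudocount and unit, and 4 members were at least 2-fold higher in each of them, against 9 at 1.5-fold and 1 at 4-fold. TMM scaling with the 1.5-fold rule, added after seeing the data, gave 6 members higher and 1 lower, 1414 genes higher and 1463 lower, and 11 chaperone genes higher and 4 lower. Under TMM, median-of-ratios and upper quartile scaling, in that order, the log2 ratios fell outside the counting intervals of 7 members. They were 4.92, 4.92 and 4.92 for *hsp70.1*, 0.55, 0.55 and 0.55 for *hsp70.2*, 0.50, 0.50 and 0.50 for *hsp70.3*, 0.47, 0.47 and 0.47 for *hsp70l*, 1.49, 1.49 and 1.49 for *hspb1*, 0.62, 0.63 and 0.63 for *hsp90aa1.1*, and 0.70, 0.71 and 0.71 for *dnajb1b*. With totals free of globin, mitochondrially encoded and ribosomal protein genes, *hsp70.2* had 0.69, *hsp70.3* 0.63, *hsp70l* 0.61 and *dnajb1b* 0.84. The summed *hsp70* genes, at 0.81, had 0.61 under each of the 3 scalings, 0.75 with those reduced totals and 0.79 with FPKM. Their sum had 0.70 without *hsp70.1*, 0.83 without *hsp70.2*, 0.99 without *hsp70.3* and 0.84 without *hsp70l*.

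The 3 scalings lower each ratio of CPM by nearly the same amount and also change which genes reach 10 CPM, as in the other Hsp70 list, with 10 measured genes under TMM in place of 11. Medians near 0 turned. In the same order, the median of all measured genes was -0.075, -0.073 and -0.072, that of all chaperone lists -0.046, -0.044 and -0.043, other Hsp70 -0.097, -0.095 and -0.094, Hsp40 -0.046, -0.044 and -0.043, Hsp90 -0.062, -0.060 and -0.059, and heat shock factors -0.15, -0.15 and -0.15. Exchange factors had -0.23, -0.23 and -0.23, small heat shock genes 0.93, 0.93 and 0.93, mitochondrial chaperones 0.0041, 0.0061 and 0.0070, and heat-inducible genes 0.089, 0.091 and 0.092. Other Hsp70 genes also had a median of 0.039 and heat shock factors of -0.015 with the reduced totals. Other Hsp70 genes had -0.069 with FPKM, -0.070 with a minimum of 50 CPM and 0.0025 with 10 CPM in both libraries. Small heat shock genes had 1.01 with a pseudocount of 5, 1.52 with a minimum of 50 CPM and 0.76 with none, and heat shock factors 0.19 with a minimum of 1 CPM and with none. A median has no interval, and one within 0.1 of its value was taken as kept, a limit set after the data were seen.

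Genes at least 2-fold lower were 435, 431 and 428 under the 3 scalings. Other rules changed the counts of genes by construction. Genes higher and lower were 2414 and 578 with a minimum of 1 CPM or none, 270 and 123 with 50 CPM, 427 and 156 where both libraries had to reach 10 CPM, 434 and 150 with FPKM, 2083 and 790 at 1.5-fold, 179 and 29 at 4-fold, and 627 higher with a pseudocount of 5. Chaperone genes higher were 5 under the 3 scalings, a pseudocount of 5, FPKM and the minimum in both libraries, 13 with a minimum of 1 CPM or none (2 lower), 3 with 50 CPM, 19 at 1.5-fold (2 lower) and 2 at 4-fold. No paired analysis was possible because there was 1 library per genotype. Counting error is small for the *hsp70* genes, and the spread between embryos is unknown.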

Other observations

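Values of chaperones of the endoplasmic reticulum were put together after they were seen. By library total they showed no shared direction, and *serpinh1b* was the only measured gene of the set that reached 2-fold. That set left out the genes of collagen folding and modification. Of 5 such genes that reached the minimum in both libraries, 2 were at least 2-fold higher, against 427 of all 8242 genes that reached it. Among the 2 was *fkbp9*, with a fold of 2.23 (1.77 to 2.82). *serpinh1a*, measured through mutant cells alone, had a fold of 2.71 (1.67 to 4.54). *hsp90b1*, the Hsp90 of this compartment, was 1.68-fold lower in mutant cells (1.52 to 1.86), and *hspa5*, its Hsp70, 1.16-fold lower (1.12 to 1.21). The cytosolic *hspa4a* was also 1.16-fold lower (1.12 to 1.21). The Hsp40 genes *dnajc3a* and *dnajc10* had 21.3 and 45.5 CPM in mutant cells, against 31.7 and 55.7 CPM in sibling cells. *dnajc3b* had 20.8 CPM in mutant cells and 25.0 CPM in sibling cells. Below the minimum for a measured gene, *dnajb9a* had 12 counts in mutant cells and 34 in sibling cells. The rows named *dnajb9b* had 37 and 23 counts in mutant cells, against 55 and 32 in sibling cells. *dnajb11* had 104.4 CPM in mutant cells and 104.7 CPM in sibling cells, and *hyou1*, an exchange factor for *hspa5*, 136.3 CPM in mutant cells and 136.1 CPM in sibling cells. *hspa13* had 22.7 CPM in mutant cells and 17.1 CPM in sibling cells, *dnajc1* 121 CPM in mutant cells and 109 CPM in sibling cells, and *SIL1* 22.7 CPM in mutant cells and 21.1 CPM in sibling cells. TMM scaling would lower each log2 ratio of CPM by 0.20. That is more than the log2 ratios of *dnajc1* (0.15), *SIL1* (0.098) and *hyou1* (0.0025), which would turn negative. The ratio of *hspa13* (0.39) would stay positive. How many of these genes were higher thus depends on the scaling.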
